A study of Mus musculus with 2 samples.

Results

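A group of 10 Dppa, Tcl1 and Prame-like genes associated with pluripotency was examined in mouse embryonic stem cells (ESCs), chosen by symbol from the 24532 genes of the deposited expression table: Dppa3, Dppa5a, Gdf3, Utf1, Fbxo15, Tcl1, Pramel6, Pramel7, Pramef12 and Tdh. All 10 symbols were found, 1 row each. The RNA-seq data compared E14 ESCs, an established mouse line that is wild type for Sox2, with E14-Sox2TA/WT cells, in which 1 Sox2 allele carries the T258A change and the other is wild type. The change was knocked in by CRISPR/Cas9 from a single-stranded donor. It replaces a threonine that can carry O-GlcNAc, a sugar added to nuclear and cytoplasmic proteins, with alanine. Both lines were grown with serum and leukemia inhibitory factor (LIF). The E14-Sox2TA/WT cells came from clonal selection of single edited cells, and the number of clones behind the library is not stated. According to the methods of the study, selected clones were kept with 2i, the inhibitors PD0325901 and CHIR99021, and were used at passages after 2i had been removed. Genotype, clonal origin and culture history therefore differed together and cannot be told apart. Each genotype had 1 library, so the differences below could not be set against replicates, and none was tested.

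These genes are grouped because they are abundant in the early embryo, germ cells or ESCs and are shut off in most somatic tissues, and many serve as markers of pluripotency. They do unlike things. Tdh is a metabolic enzyme, Gdf3 a secreted ligand, Utf1 and Dppa3 act on chromatin and DNA methylation, Fbxo15 is a ubiquitin ligase subunit, Tcl1 a kinase coactivator, Dppa5a an RNA-binding protein, and the Prame-like genes belong to a large family of leucine-rich repeat proteins. Several are known targets of the Oct4, Sox2 and Nanog network, and Utf1 and Fbxo15 are classical examples of genes driven by Oct4 and Sox2 together.

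The promoters are shown for the 3 Prame-like members, whose ratios were all below 1, and for Utf1, whose ratio was above 1. RefSeq (GRCm38.p6) windows were held for 5 of the 10 genes, these 4 and Tcl1. Each sequence is the 250 bases before an annotated transcription start, read 5′ to 3′ on the strand of the gene. The start used for Pramef12 lies inside the outermost end of the gene, so the last 3 bases of its window fall within the gene as given below. The sequences are printed with matches to the searched motifs in capitals.

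Pramel6 (chr2:87506315-87506564, plus strand): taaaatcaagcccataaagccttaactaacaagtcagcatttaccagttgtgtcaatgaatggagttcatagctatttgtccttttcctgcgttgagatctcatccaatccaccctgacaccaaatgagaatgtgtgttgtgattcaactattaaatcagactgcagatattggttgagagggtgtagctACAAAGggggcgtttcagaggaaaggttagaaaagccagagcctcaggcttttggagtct
Pramel7 (chr2:87492419-87492668, minus strand): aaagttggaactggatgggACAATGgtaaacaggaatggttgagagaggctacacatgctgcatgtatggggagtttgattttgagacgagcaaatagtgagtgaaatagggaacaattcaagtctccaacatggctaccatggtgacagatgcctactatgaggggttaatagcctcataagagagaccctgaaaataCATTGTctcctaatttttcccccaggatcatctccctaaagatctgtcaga
Pramef12 (chr4:144408465-144408714, minus strand): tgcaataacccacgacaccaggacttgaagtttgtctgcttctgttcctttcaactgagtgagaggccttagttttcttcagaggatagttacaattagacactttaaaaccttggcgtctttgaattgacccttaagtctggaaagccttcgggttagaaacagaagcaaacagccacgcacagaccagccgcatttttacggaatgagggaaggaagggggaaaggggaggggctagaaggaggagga
Utf1 (chr7:139943606-139943855, plus strand): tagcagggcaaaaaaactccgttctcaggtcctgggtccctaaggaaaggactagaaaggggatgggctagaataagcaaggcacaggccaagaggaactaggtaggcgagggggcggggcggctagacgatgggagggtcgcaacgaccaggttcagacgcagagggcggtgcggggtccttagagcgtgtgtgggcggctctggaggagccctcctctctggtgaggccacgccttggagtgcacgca

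The motifs searched on both strands were an Oct octamer (ATGCAAAT), which 1.60% of 32851 windows of the same length held, a pair of Sox elements (ACAAAG, 16.5% of windows, and ACAATG, 10.7%) and a Klf element (GGGCGTGG, 4.79%). The Pramel6 window held ACAAAG with its first base 60 bases before the start. The Pramel7 window held ACAATG 231 bases before the start and again, on the reverse strand and printed as its reverse complement, 51 bases before it. The Pramef12, Utf1 and Tcl1 windows held none of these letters. The windows differed in CpG content, with 14 CpG dinucleotides in Utf1, 7 in Tcl1, 6 in Pramef12, 2 in Pramel6 and 1 in Pramel7, against a median of 6 over all windows. The ratio of observed to expected CpG was 0.638 in Utf1 and 0.0882 in Pramel7, beside a median of 0.373. A match is a description of the letters and not a binding site. A window without a match leaves sequence outside it, and variants of the letters, unsearched.

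Total counts were 60263536 reads in E14 and 44609228 in E14-Sox2TA/WT cells. The limit that a count of 0 allows, 3 reads, corresponded to 0.0498 and 0.0673 CPM, the reads scaled to the library total. Levels are given as TPM, which is scaled for transcript length, and ratios as E14-Sox2TA/WT over E14. All intervals are 95% intervals of the read counts (Poisson for a level, Clopper-Pearson for a ratio). They describe counting error alone, because 1 library per genotype gives no spread between cultures. PCR copies of a molecule are counted separately, so the intervals may be too narrow even for counting error. Pluripotency markers were present in both libraries, all 6 of 6, with a summed TPM of 3805 in E14 and 3326 in E14-Sox2TA/WT cells. Sox2 itself was at 373 and 274 TPM, and the deposited gene counts do not separate its alleles. In bulk RNA, fewer cells expressing a gene and less RNA per cell cannot be told apart.

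Among the 10 genes, Tdh (2.09-fold) and Dppa3 (1.97-fold) were the most elevated in E14-Sox2TA/WT cells, and Gdf3, Utf1, Fbxo15 and Tcl1 differed by 1.32-fold or less. Pramef12 and Dppa5a were higher in E14, by 1.69-fold and 1.55-fold, and Pramel6 and Pramel7 were lower in E14-Sox2TA/WT cells at few reads. In all, 5 genes had a higher and 5 a lower TPM in E14-Sox2TA/WT cells, beside 57.3% higher and 42.7% lower among all genes with a TPM of 10 in either library. Of the 8 genes that reached a TPM of 10 in at least 1 library, 1 (Tdh) was more than 2-fold higher and 0 were more than 2-fold lower. Over the 9094 genes past this filter, 4.17% were more than 2-fold higher and 4.07% more than 2-fold lower. Dppa3 passed the filter through the E14-Sox2TA/WT library alone, and Pramel6 and Pramel7 did not pass it. At a 1.5-fold threshold, 2 genes were higher (Tdh and Dppa3; 14.2% of all genes past the filter) and 2 lower (Dppa5a and Pramef12; 10.5%). The counting interval excluded no change for 9 of the 10 genes, as it did for 85.4% of genes past the filter. The median log2 ratio of the 10 genes was -0.03, beside 0.08 for all genes past the filter. The 10 include Pramel6 and Pramel7, which did not pass it. For the other 8 genes the median was 0.16, with 5 higher and 3 lower. At 3-fold, 0 were higher (1.14% of all genes) and 0 lower (1.5%). The interval of the ratio lay wholly past 2-fold for Tdh alone, as for 3.23% of genes upward and 3.14% downward. Scaling by CPM in place of TPM moved the median ratio of all genes past the filter by -0.14 on the log2 scale. By CPM, 280 genes were more than 2-fold higher (3.08%) and 496 lower (5.45%), in place of 379 and 370, and 0 of the 10 genes were among them. By FPKM the shares were 3.06% and 5.45%, again with 0 of the 10.

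**Figure D1:**
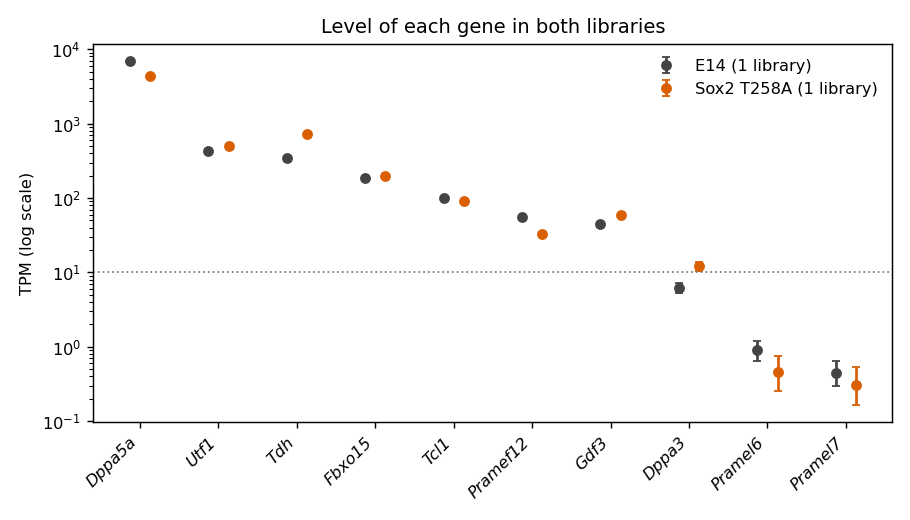
TPM (log scale) of each of the 10 genes in the E14 library (gray) and the E14-Sox2TA/WT library (orange, labeled Sox2 T258A), ordered by the E14 level, with 95% Poisson intervals of the read counts as bars and a dotted line at the TPM filter of 10. The levels run from 6877 TPM for Dppa5a to 0.450 for Pramel7 in E14, and the intervals of the 2 libraries overlap visibly for Pramel6 and Pramel7.

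The levels of the 10 genes spanned a factor of 15293 in E14. In E14 their order by TPM was Dppa5a, Utf1, Tdh, Fbxo15, Tcl1, Pramef12, Gdf3, Dppa3, Pramel6 and Pramel7. In E14-Sox2TA/WT cells Tdh stood above Utf1 and Gdf3 above Pramef12, and the order was otherwise the same. Pramel6 and Pramel7 were the one pair of neighbors in this order with overlapping counting intervals, in both libraries.

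Tdh encodes L-threonine dehydrogenase, the mitochondrial enzyme that starts the breakdown of threonine to glycine and acetyl-CoA, a pathway on which mouse ESCs depend. It lies on the minus strand at chr14:63492347-63509092 (GRCm38.p6, 9 exons). Tdh had 20753 reads and 350.3 TPM in E14, and 29040 reads and 732 TPM in E14-Sox2TA/WT cells. The E14-Sox2TA/WT library was the higher one by 2.09-fold (2.05 to 2.13), and Tdh moved from rank 391 to rank 156 among all genes by TPM. A total of 320 genes past the filter (3.52%) had a higher ratio. By CPM the levels were 344 and 651, a log2 ratio of 0.92, which is under 2-fold. An antisense gene, Gm17232, shares 66 of its exonic bases with Tdh, and the use of strand in counting is not stated. The Tdh transcript matched that of Gm13929 at 97.1% identity over 59.5% of its length, and Gm13929 has no row in the table.

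The enzymes of the pathway downstream of Tdh had ratios of both signs. Gcat, which converts the product of Tdh to glycine, was at 98.2 TPM in E14 and 95.3 in E14-Sox2TA/WT cells (log2 ratio -0.04, interval -0.10 to 0.01). Of the 5 expressed genes (mean TPM of at least 1) of threonine and glycine breakdown other than Tdh, 2 were higher and 3 lower, and Dld changed sign by CPM, by FPKM or with the GC and length trend removed, Gcat with the last alone. They ranged from Gcsh, a carrier protein of the glycine cleavage system, at a log2 ratio of 0.43, to Amt, its aminomethyltransferase, at -0.42. Sds, a serine and threonine dehydratase, had 40 reads in E14 and 0 in E14-Sox2TA/WT cells.

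Dppa3 (also Stella) is a maternal factor that protects DNA from loss of methylation in the zygote and keeps Uhrf1 away from chromatin. The gene lies on the plus strand at chr6:122626424-122630271 (4 exons). Dppa3 had 159 reads and 6.17 TPM (5.24 to 7.20) in E14, and 211 reads and 12.2 TPM (10.6 to 13.9) in E14-Sox2TA/WT cells. The level intervals did not overlap, and the E14-Sox2TA/WT library was higher by 1.97-fold (1.60 to 2.44). The counting interval of Dppa3 therefore lay on both sides of 2-fold, and after a trend on transcript GC content and length was taken out its log2 ratio was 1.11, past that threshold, as for 3.75% of genes upward and 3.26% downward. Its transcript matched a pseudogene, Dppa3-ps, at 98.2% identity over 54.1% of its length, and that pseudogene has no row in the table.

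The partners of Dppa3 in DNA methylation were higher in E14-Sox2TA/WT cells as well. All 5 listed genes, each with a mean TPM above 1, had a higher TPM, under every scaling tried, with a median log2 ratio of 0.46, beside 0.04 over all 13269 genes expressed at that level, of which 53.2% were higher. Tet1, which oxidizes 5-methylcytosine, was at 70.1 TPM in E14 and 142 in E14-Sox2TA/WT cells (log2 ratio 1.01). Uhrf1, which brings the maintenance methyltransferase to DNA, was at 179 and 240 TPM, the lowest ratio of the 5 (0.42, interval 0.39 to 0.45), within counting error of that of Dnmt1 (0.43).

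Gdf3 is a TGF-beta superfamily ligand related to Nodal that signals in the early embryo. It is a near neighbor of Dppa3, on the minus strand at chr6:122605403-122610087 (2 exons), 16.3 kb away. Gdf3 had 2980 reads and 44.5 TPM (42.9 to 46.1) in E14 and 2635 reads and 58.8 TPM (56.5 to 61.04) in E14-Sox2TA/WT cells. The level was higher in E14-Sox2TA/WT cells by 1.32-fold (1.25 to 1.39), and 24.2% of genes past the filter had a higher ratio. The log2 ratio was 0.40 by TPM and 0.26 by CPM.

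Of the 11 expressed ligands, receptors, signal transducers and antagonists listed with Gdf3, 7 were higher and 4 lower, with a median log2 ratio of 0.41, beside 0.04 and 53.2% higher over all genes expressed at that level. That median was 0.27 by CPM and 0.21 with the GC and length trend removed. Lefty1, an antagonist of Nodal, had the highest ratio, with 79.2 TPM in E14 and 182 in E14-Sox2TA/WT cells (1.20). Acvr1b, a type I activin receptor, had the lowest, with 38.7 and 26.2 TPM (-0.56). Gdf1, a ligand close to Gdf3, changed sign when size factors by the median of ratios were used or the GC and length trend was removed, and its own interval (-0.22 to 0.15) held no change. Smad2, a signal transducer, changed sign with the trend removed.

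Dppa3 and Gdf3 sit in a stretch of chromosome 6 with other genes of early development, and neighbors there had ratios of both signs. Nanog, a core pluripotency factor 77.2 kb from Dppa3, was at 527 TPM in E14 and 251 in E14-Sox2TA/WT cells (log2 ratio -1.07, interval -1.10 to -1.04). Apobec1, a cytidine deaminase 2.38 kb from Gdf3, was at 18.4 and 11.4 TPM (-0.70). The plot of ratios by distance shows Dppa3 and Gdf3 above the line of no change, with Nanog, Apobec1 and Mfap5 below it.

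**Figure D2:**
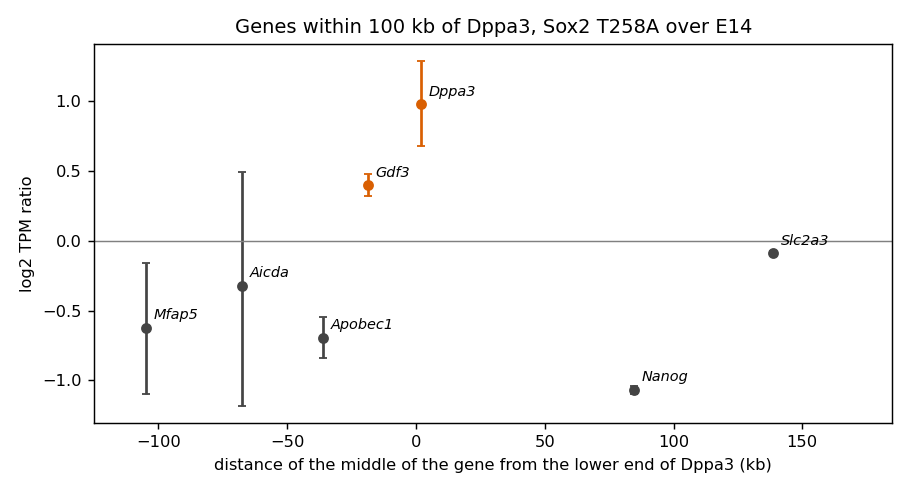
Log2 TPM ratio (E14-Sox2TA/WT, labeled Sox2 T258A, over E14) of the genes within 100 kb of Dppa3 against the distance of the middle of each gene from the lower end of Dppa3 (kb), with 95% counting intervals as bars and Dppa3 and Gdf3 in orange. Dppa3 (0.98) and Gdf3 (0.40) lie above 0, and Nanog (-1.07) and Apobec1 (-0.70) lie below it.

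Utf1 encodes a chromatin-bound protein of pluripotent cells that limits expression of differentiation genes. It lies on the plus strand at chr7:139943856-139945112 (2 exons), just after the window printed above. Utf1 had 15674 reads and 429 TPM (422 to 436) in E14, and 12408 reads and 507 TPM (498 to 516) in E14-Sox2TA/WT cells. The E14-Sox2TA/WT level was higher by 1.18-fold (1.15 to 1.21), and 36.5% of genes past the filter had a higher ratio. Its log2 ratio of 0.24 was the one that depended most on base composition and length, at 0.65 after that trend was removed and 0.10 by CPM. Kndc1, 2.32 kb away, was at 1.87 and 3.65 TPM (0.96).

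Fbxo15 is an F-box protein, the substrate-binding part of an SCF ubiquitin ligase, and its locus was the reporter in early reprogramming work. The gene lies on the plus strand of chromosome 18 (10 exons). Fbxo15 had 9294 reads and 186 TPM (182 to 189.9) in E14, and 6540 reads and 195 TPM (191 to 200.2) in E14-Sox2TA/WT cells. The log2 ratio was 0.07 (0.02 to 0.12) by TPM and -0.07 by CPM or FPKM, so its direction depended on the scaling. The ratio stood in the middle of all genes, with 51.3% of genes past the filter above it. The other SCF subunits, Skp1a, Cul1 and Rbx1, were 3 of 3 higher under every scaling, from 0.34 for Rbx1 to 0.65 for Cul1, beside 57.3% of all genes past the filter that were higher. Fbxo15 overlaps Timm21 on the opposite strand, without shared exonic bases.

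Tcl1 is a coactivator of Akt kinases that promotes proliferation of ESCs. The gene lies on the minus strand at chr12:105216753-105222737 (4 exons). Tcl1 had 4345 reads and 99.9 TPM (96.9 to 103) in E14, and 2668 reads and 91.6 TPM (88.1 to 95.1) in E14-Sox2TA/WT cells. The E14 level was 1.09-fold (1.04 to 1.15) that of E14-Sox2TA/WT cells, a log2 ratio of -0.13. This small difference turned to 0.08 with the GC and length trend removed and was -0.27 by CPM. Its neighbors Tcl1b1 to Tcl1b5, copies of the same family, had 0 reads in both libraries, which allows up to 3 reads each. Mtcp1, the remaining family member, was at 2.79 and 2.76 TPM.

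**Figure D3:**
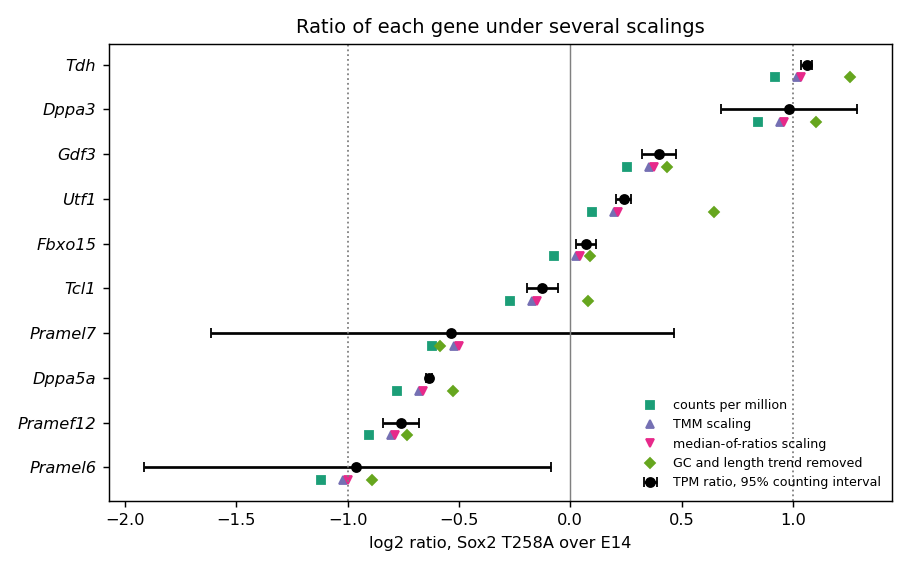
Log2 ratio (E14-Sox2TA/WT, labeled Sox2 T258A, over E14) of each of the 10 genes, as the TPM ratio with its 95% counting interval (black) and under 4 other scalings (colored symbols), with dotted lines at 2-fold. The points of Tdh, Dppa3, Gdf3 and Utf1 stay above 0 and those of Dppa5a, Pramef12, Pramel6 and Pramel7 below 0 in each, whereas Fbxo15 and Tcl1 have symbols on both sides.

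Dppa5a (also Esg1) encodes a KH-domain RNA-binding protein and is one of the most abundant messages of mouse ESCs. It lies on the minus strand at chr9:78367052-78368199 (3 exons). Dppa5a had 138408 reads and 6877 TPM (6841 to 6913) in E14, and 59732 reads and 4429 TPM (4394 to 4465) in E14-Sox2TA/WT cells. It took 0.230% of all reads in E14 and 0.134% in E14-Sox2TA/WT cells, and its rank by TPM went from 4 to 12. The level in E14 was 1.55-fold (1.54 to 1.57) that in E14-Sox2TA/WT cells, and 9.20% of genes past the filter had a lower ratio. The log2 ratio was -0.63, and it lay between -0.78 and -0.53 under all alternatives tried.

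Sequences close to Dppa5a bear on how its reads were assigned. Its transcript matched that of Pigp at 95.9% identity over 67.4% of its length and that of Gm6083 at 96.9% over 57.7%. Pigp had 1040 reads in E14 and 447 in E14-Sox2TA/WT cells, and Gm6083 had 10 and 2. With these reads added, Dppa5a had 139458 and 60181 reads, and its log2 ratio was again -0.63. The added reads were few beside those of Dppa5a, so this sum could hardly move the ratio. Other similar transcripts, among them Gm6798 (95.8% identity over 57.7%), have no row in the table, so their reads could not be added.

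Dppa2 and Dppa4, SAP-domain proteins that are not relatives of Dppa5a and act together at early-embryo genes, had ratios above 1. Dppa2 was at 92.9 TPM in E14 and 151 in E14-Sox2TA/WT cells (log2 ratio 0.70). Dppa4 was at 147 and 193 TPM (0.40). Dppa1 had 0 reads in both libraries. Ooep, an oocyte and embryo protein encoded 8.70 kb from Dppa5a and like it a KH-domain gene, was at 138 TPM in E14 and 62.2 in E14-Sox2TA/WT cells (-1.15, interval -1.23 to -1.06).

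Pramef12 was the one Prame-like member expressed at a substantial level. It lies in the Prame cluster of chromosome 4, on the minus strand at chr4:144391674-144408467 (4 exons), and is named Pramel13 in current RefSeq. Pramef12 had 4305 reads and 55.6 TPM (53.9 to 57.2) in E14, and 1702 reads and 32.8 TPM (31.2 to 34.4) in E14-Sox2TA/WT cells. The E14 level was 1.69-fold (1.60 to 1.79) higher, and 6.85% of genes past the filter had a lower ratio. The log2 ratio was -0.76, between -0.90 and -0.73 under the alternatives tried. An antisense gene, Pramef12os, overlaps the locus without shared exonic bases.

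Pramel6 and Pramel7 are head-to-head neighbors on chromosome 2, at chr2:87506565-87510865 and chr2:87489088-87492418, 14.1 kb apart. Pramel7 is known for its part in the hypomethylated ground state of the inner cell mass, through loss of Uhrf1 protein. Pramel6 had 44 reads and 0.898 TPM (0.652 to 1.21) in E14, and 15 reads and 0.461 TPM (0.258 to 0.761) in E14-Sox2TA/WT cells. Pramel7 had 27 reads and 0.450 TPM (0.296 to 0.654) in E14, and 13 reads and 0.310 TPM (0.165 to 0.530) in E14-Sox2TA/WT cells. Both were low in both libraries, and the level intervals of the libraries overlapped for each gene. The log2 ratio was -0.96 (-1.91 to -0.09) for Pramel6 and -0.54 (-1.62 to 0.47) for Pramel7, whose difference was not detectable at this depth. Across the alternatives the ratio of Pramel6 ranged from -1.12 by CPM, past 2-fold, to -0.38 with a pseudocount of 1 TPM, and that of Pramel7 from -0.68 by FPKM to -0.15 with that pseudocount.

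The Prame family was also counted as a whole. The counts below include Pramef12, Pramel6 and Pramel7, so they are not separate from the values given above. Of the 12 family symbols in the table, 3 (Pramel3, Pramel4 and Pramel5) had 0 reads in both libraries, and all 9 with reads had a lower TPM in E14-Sox2TA/WT cells, with 7 counting intervals wholly below no change. With the GC and length trend removed, 8 genes had a value (Prame, with 5 and 0 reads, had none) and 8 were lower, and under the other scalings 9 of 9 were lower. Among the 4 expressed at a mean TPM of 1 or more, Pramef12 included, the median log2 ratio was -0.55. They ranged from -0.11 for Pramef8 (20.2 and 18.8 TPM) to -1.04 for Pramef25 (3.58 and 1.74 TPM). Pramef17 had 64 reads in E14 and 9 in E14-Sox2TA/WT cells. Most genes of low level had this direction: 62.7% of the 4854 genes with a mean TPM above 0 and under 1 were lower in E14-Sox2TA/WT cells, and 26.8% had a counting interval wholly below no change. Among the 4604 genes with a mean TPM of 1 to 10 the intervals were wholly below for 41.8%, and among the 8665 at 10 or more for 34.4%. The shares by level include genes with reads in E14 alone, counted as lower, and in E14-Sox2TA/WT cells alone, counted as higher.

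**Figure D4:**
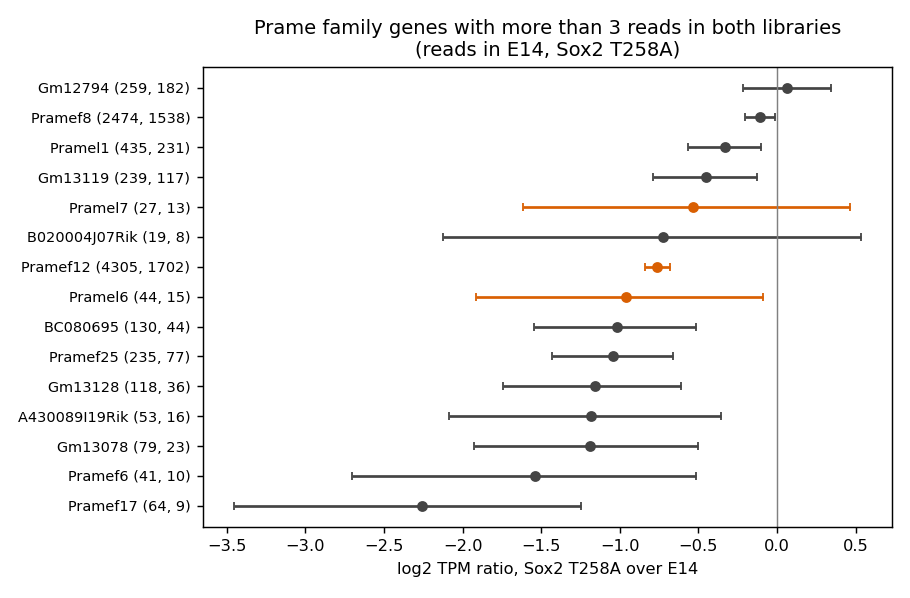
Log2 TPM ratio (E14-Sox2TA/WT, labeled Sox2 T258A, over E14) with 95% counting intervals for the Prame genes by RefSeq symbol that had more than 3 reads in both libraries, ordered by ratio, with read counts in E14 and E14-Sox2TA/WT cells after each name and Pramel6, Pramel7 and Pramef12 in orange. Gm12794 (0.07, below 0 by CPM or FPKM) is the one gene to the right of 0, and the lowest is Pramef17 (-2.26).

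In the order of ratios, Tdh, Dppa3, Gdf3, Utf1, Fbxo15, Tcl1, Pramel7, Dppa5a, Pramef12 and Pramel6, the counting intervals of neighbors overlapped for Tdh and Dppa3, for Tcl1 and Pramel7, for Pramel7 and Dppa5a, and for Pramef12 and Pramel6. The others were separated by more than counting error. Utf1, Fbxo15 and Tcl1 lay between the quartiles of all genes past the filter (-0.23 and 0.39), while 3 genes (Tdh, Dppa3 and Gdf3) lay above the upper and 4 (Pramel7, Dppa5a, Pramef12 and Pramel6) below the lower quartile. Pramel6 and Pramel7 did not pass that filter, and the genes of their level, with a mean TPM under 1, had a median of -0.78. That median includes genes with reads in E14 alone or in E14-Sox2TA/WT cells alone, whereas Pramel6 and Pramel7 had reads in both, so it is not a like comparison.

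**Figure D5:**
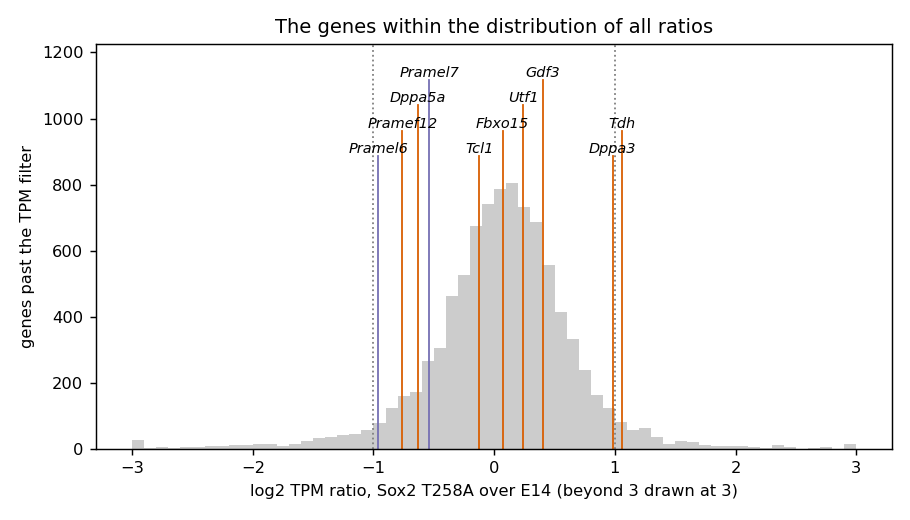
Histogram of the log2 TPM ratio (E14-Sox2TA/WT, labeled Sox2 T258A, over E14) of the 9094 genes past the TPM filter, with the 10 genes marked by lines (orange past the filter, purple under it) and dotted lines at 2-fold. Tdh lies just past the upper dotted line, Dppa3 just inside it, and the 4 genes with the lowest ratios lie between 0.5 and 1 below 0.

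Other transcripts typical of ESCs also had ratios of both signs. The list is not a separate set, because Dppa2, Dppa4 and Nanog were given above. Nanog and Zfp42 are also among the pluripotency markers. Of the 10 listed, 3 were higher and 7 lower in E14-Sox2TA/WT cells, with a median log2 ratio of -0.52 (-0.26 with the GC and length trend removed), and 1 was more than 2-fold higher and 3 (Sox15, Tdrd12 and Nanog) more than 2-fold lower, beside 4.17% and 4.07% of all genes past the filter. L1td1, an RNA-binding protein, was at 238 TPM in E14 and 512 in E14-Sox2TA/WT cells (1.11). Sox15, a relative of Sox2, was at 46.1 and 7.79 TPM (-2.56).

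Markers of other cell types differed between the libraries too. The 7 markers of primitive endoderm, the extraembryonic lineage of Gata6, were 7 of 7 lower, with a summed TPM of 46.9 in E14 and 17.4 in E14-Sox2TA/WT cells. Over all genes, 55.8% of those with a mean TPM of 1 to 10 and 62.7% of those under 1 were lower. These shares include genes with reads in E14 alone, whereas the 7 markers had reads in both libraries. The 6 trophoblast markers summed to 69.2 and 26.1 TPM, 2 of them higher and 3 lower, with Elf5 at 0 reads in both. The 9 fibroblast markers summed to 128 and 66.9 TPM, 3 of them higher and 3 lower, with Dcn, Lum and Postn at 0 reads in both. Most of both sums came from Thy1 (40.1 and 11.4 TPM) and Fbln1 (82.8 and 49.3 TPM). Among the 3 higher, Col3a1 had 15 reads in E14 and 151 in E14-Sox2TA/WT cells, and Col1a2 had 43 and 109. The 7 markers of 2-cell-like cells, a rare state in ESC cultures, summed to 88.4 and 120 TPM, 4 of them higher and 3 lower. The 6 germ cell markers summed to 97.2 and 85.7 TPM, 2 of them higher and 4 lower. Some of the 10 genes are also expressed in germ cells or the early embryo, and the part of these cells in their differences was not tested.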

How the data were processed

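Polyadenylated RNA was sequenced from E14 and E14-Sox2TA/WT cells, 1 library each. The authors deposited a gene table (mm10) with raw read counts, FPKM (scaled by transcript length and library size) and TPM (FPKM rescaled to a common sum). The submitters' processing notes name bcl2fastq 2.20.0, Trimmomatic, HISAT2 2.1.0 and StringTie 2.1.3b. How reads were counted, by strand or not and at several loci or one, is not given in the sources used here. All value columns were used.

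The ratio of deposited TPM was taken without a pseudocount, and genes were counted at more than 2-fold where either library reached a TPM of 10, the filter of the study. With 1 library per group no count model or test was fitted. Exact 95% intervals came from the deposited counts (scipy 1.17.1) and were placed on the TPM scale. The scripts were tested on simulated data. Positions, transcripts and promoters came from RefSeq and GENCODE annotation of GRCm38, with BLAST 2.17.0 for similar transcripts. RefSeq positions were found for 24458 of 24532 gene IDs. Alternatives were other scalings (TMM from edgeR 4.0.16, size factors from DESeq2 1.42.0, CPM, FPKM, centring on the median, removal of the 10 highest genes), pseudocounts of 0.1 and 1, other filters and thresholds, subtraction of a GC and length trend (20 bins), and summing of reads over similar copies.

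The 10 genes and all lists were chosen with earlier results of these data known. The rule for named genes took the 10 genes, the highest and lowest expressed gene of each list and genes within 100 kb of one of the 10. Gcat, Sds, Dld, Gdf1, Smad2, Skp1a, Dnmt1, Tdrd12, Dppa1, Dppa2, Dppa4, Mtcp1, Sox2, Pou5f1, Zfp42, Fbln1, Col3a1, Col1a2, markers without reads and single Prame genes were named outside it, after their values were seen. The result of 1 list is not reported here.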

Additional observations from a re-analysis of the deposited data

How the results depend on the processing

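With 1 library per genotype, no replicate could be left out. No paired analysis was possible because each group had 1 library without a replicate number. Of 91 recomputed log2 ratios of the 10 genes, 88 kept their sign. Fbxo15 turned to -0.0731 by CPM and -0.0728 by FPKM, and Tcl1 to 0.0812 once the GC and length trend was removed. The number of genes more than 2-fold higher was 1, and became 0 by CPM, by FPKM or at a 3-fold threshold, and 2 with the trend removed or at a 1.5-fold threshold. The number more than 2-fold lower was 0, and became 2 at 1.5-fold. The median log2 ratio of the 10 genes (-0.03) moved to -0.171 by CPM and by FPKM. It turned to 0.0845 with the trend removed, 0.156 among genes with a TPM of at least 1, and 0.0706 at a TPM of at least 20 or a mean TPM of at least 10. The filters remove Pramel6 and Pramel7, and the last pair also Dppa3. A search for near-identical copies of the 10 genes (95% identity over 80% of the transcript) found none and gave no value, and a looser one (90% over 50%) was chosen after seeing the data. Depth limits Pramel6 and Pramel7, with 44 reads or fewer.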

Other observations

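The Prame family is larger in current RefSeq than its symbols in the table show. By RefSeq symbol, a membership chosen after seeing the data, the table held 34 Prame genes, of which 22 had no Prame-type symbol there. The 34 include Pramef12, Pramel6 and Pramel7. A total of 15 had 0 reads in both libraries. Of the 19 with reads, 18 had a lower TPM in E14-Sox2TA/WT cells and 1, Gm12794, a higher one (259 and 182 reads, log2 ratio 0.07). By CPM or FPKM, 19 of 19 were lower. With the GC and length trend removed, 15 had a value (those with 0 reads in E14-Sox2TA/WT cells had none) and 14 were lower. The counting interval lay wholly below no change for 14 genes and wholly above for 0. Reads in E14 alone were found for 4 of the 34. They were BC061212, with 47 reads in E14 and 0 in E14-Sox2TA/WT cells, Gm13083 (31 and 0), Prame (5 and 0) and Gm7978 (1 and 0). E14 was the deeper library, and of all genes 17645 had reads in E14 and 16764 in E14-Sox2TA/WT cells. The share of all genes with reads in E14 alone was not counted. By level, 11 of 11 Prame genes with a mean TPM under 1 were lower, 5 of 6 with a mean TPM of 1 to 10, and 2 of 2 at 10 or more. Over all genes at these levels, 62.7%, 55.8% and 42.1% were lower. The genes share sequence, and reads may have been split among copies, so they do not count as independent.

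Prame genes near Pramef12 on chromosome 4 were lower with it. Gm13128, 58.2 kb away, had 118 reads in E14 and 36 in E14-Sox2TA/WT cells (-1.16), and Gm13119, 27.3 kb away, had 239 and 117 (-0.46). On chromosome 4 as a whole, 13 of 22 Prame genes had reads, and 12 of these were lower. These 13 include Pramef12 and are among the 19 counted above. Over all genes, 62.7% with a mean TPM under 1, 55.8% at 1 to 10 and 42.1% at 10 or more were lower. The gene 6430531B16Rik, 27.2 kb from Utf1, had 150 reads in E14 and 13 in E14-Sox2TA/WT cells (-3.01), while Utf1 was at 0.24. Fam167a, 26.8 kb from Tdh, had 181 and 51 reads (-1.27), and Mtmr9, 10.6 kb from Tdh on the other side, had 3158 and 2953 (0.48).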
